A study of Mus musculus with 6 samples.

Results

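Immediate early genes were examined in 6 RNA sequencing libraries of isolated renal glomeruli, the capillary tufts that filter blood in the kidney. The set holds 37 genes listed by symbol as immediate early and dissociation response genes, among 18822 genes with a value. All 37 were matched by Entrez gene ID. They include Fos (Entrez 14281, chr12:85473890-85477274), Jun (Entrez 16476, chr4:95049036-95052222), Ier5 (Entrez 15939, chr1:155096367-155099636) and Sgk1 (Entrez 20393, chr10:21882184-21999903), in GRCm38.p6 coordinates of the gene spans. The 3 libraries labelled PR3 KO, written PR3_KO here, came from mice lacking proteinase 3, the product of Prtn3 and a protease stored in neutrophils. The 3 libraries labelled WT came from wild-type mice. Both groups are on the C57BL/6J strain and both carry diabetic kidney disease, so no library represents a healthy kidney. The age and sex of the animals, the way diabetes was induced, the design of the knockout allele and the way the glomeruli were isolated are not stated in the labels. Nor do they tie the libraries of a group to different animals, and the p-values therefore reflect the spread between these samples alone, which may be technical.

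Immediate early genes are transcribed within minutes of a stimulus and need no new protein synthesis for it. Growth factors, cytokines, mechanical stress and tissue dissociation all induce them, through MAP kinases that act on serum response factor, ternary complex factors and CREB at their promoters. Their products include the Fos and Jun subunits of the AP-1 transcription factor, zinc finger transcription factors, and inhibitors that shut the response off again, such as MAP kinase phosphatases and proteins that degrade the messages. In kidney preparations these transcripts are also known to rise during the handling of the tissue before RNA is fixed.

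The values are FPKM, fragment counts normalised for transcript length and library size. Fold changes are PR3_KO minus WT on the scale of log2(FPKM + 1), which understates the change of low genes, and means are given ± SD over 3 libraries. The test was limma, run on the 12388 genes that averaged 1 FPKM or more, with Benjamini-Hochberg adjustment across them and a threshold of 0.05.

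The immediate early genes were lower in PR3_KO. Of the 37 genes 32 passed the filter on low values and were tested, and 27 of these fell, 0 rose and 5 did not pass. Among all tested genes 41.1% fell and 11.7% rose. The 27 that fell are 84.4% of the 32 tested genes. The median log2 fold change of the 32 genes was -0.99, against -0.26 for all tested genes, a difference of -0.73. A fall of 1 or more on the log2 scale was found in 16 of the 32, while 9.36% of all tested genes fell that far. All 3 PR3_KO libraries lay below all 3 WT libraries for 27 of the 32, and for 49.1% of all tested genes. In bulk tissue, fewer cells of a type and less RNA per cell cannot be told apart.

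The general shift of the data toward lower values in PR3_KO depends on scaling. After scaling each library by the median of its ratios to the gene-wise geometric mean, the median of all genes lay at 0, with 47.5% of all tested genes called, 23.7% lower and 23.8% higher. With that scaling 22 of the 32 immediate early genes fell and 0 rose, and their median was -0.73. The calls of Jund, Hbegf, Ppp1r15a, Zfp36l1 and Zfp36l2 were lost.

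**Figure D1:**
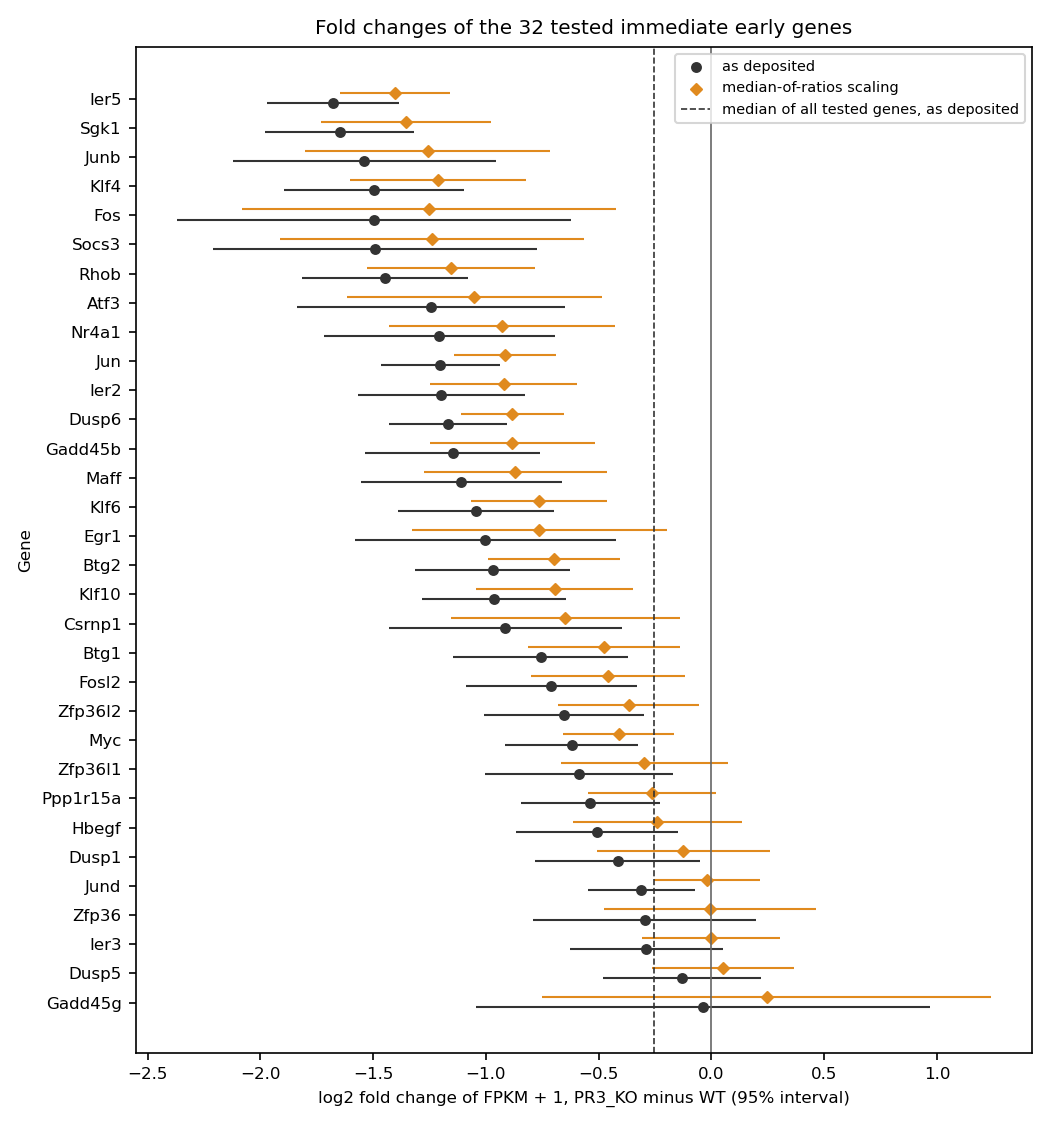
Log2 fold change (PR3_KO minus WT, FPKM + 1) of each of the 32 tested immediate early genes with its 95% interval, from values as deposited (black circles) and after median-of-ratios scaling (orange diamonds). The dashed line is the median of all 12388 tested genes as deposited, -0.26; the genes run from Ier5 at -1.68 to Gadd45g at -0.04.

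The libraries themselves bear on these values. Prtn3, the targeted gene, was listed at 0 to 0.14 FPKM in PR3_KO and 0.21 to 0.46 in WT, which is too low to be a firm check of the labels. Taking the most common value above 0 among 53 olfactory receptor genes as 1 fragment, 1 fragment on a receptor gene of median length was worth 0.07 FPKM in 5 libraries and 0.08 in WT 1. That puts the depth at about 15200000 fragments, or 13300000 in WT 1, a rough estimate carried by 3 to 7 genes per library. Proximal tubule markers were higher in PR3_KO: 12 of 15 rose and 0 fell, and their summed level was 54700 to 72720 FPKM against 10130 to 26640 in WT. All 12 macrophage and other myeloid markers fell (summed 108 to 175 FPKM in PR3_KO, 762 to 1626 in WT), as did all 12 of the glomerular endothelium (1363 to 1973 against 3440 to 4198). Of 10 podocyte markers 5 fell and 0 rose (370 to 593 against 661 to 1081 FPKM), and of 8 markers of mesangium and smooth muscle 5 fell and 0 rose (104 to 175 against 190 to 315 FPKM). Among 10 loop, distal tubule and collecting duct markers 5 fell and 0 rose (770 to 1177 against 1228 to 1565 FPKM). Of all tested genes 41.1% fell, and 23.7% did after median-of-ratios scaling. With that scaling 2 of 10 podocyte, 3 of 8 mesangium and smooth muscle and 2 of 10 loop, distal tubule and collecting duct markers fell. The macrophage and endothelium lists then had 12 of 12 and 11 of 12 that fell, and 14 of 15 proximal tubule markers rose. No marker of these lists was at 0 in any library. Immediate early genes are expressed in all of these cell types, and the part of the cell makeup in the results below was not tested.

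**Figure D2:**
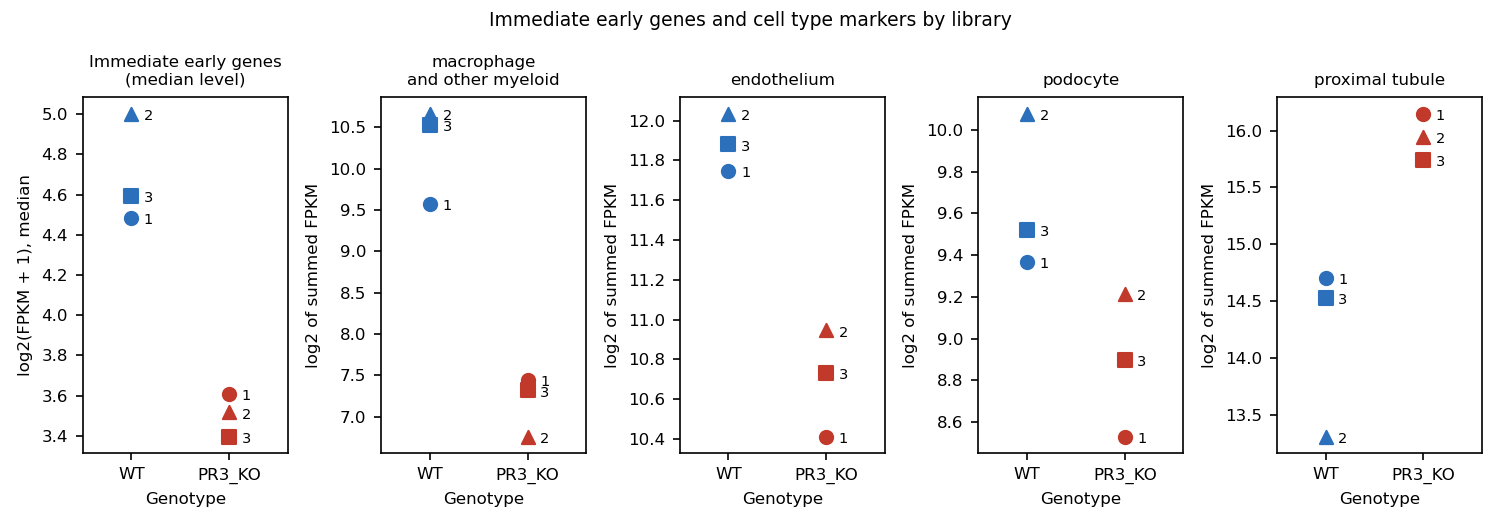
Median log2(FPKM + 1) of the 32 tested immediate early genes (left) and log2 of the summed FPKM of 4 marker lists, by genotype; each point is a library, numbered as in the labels. In every panel the genotypes do not overlap, with WT 2 at the WT extreme, and proximal tubule markers alone are higher in PR3_KO.

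WT 2 held the highest value of 30 of the 37 genes, WT 1 and WT 3 of 3 each and PR3_KO 1 of 1, Gadd45g. WT 2 was also the highest library for 46.6% of all tested genes, and for 72.2% of those that lay lower in every PR3_KO library. It had the lowest proximal tubule sum (10130 FPKM) and the highest macrophage sum (1626 FPKM). The median level of the 32 genes was 5.0 on the log2 scale in WT 2 against 4.48 and 4.59 in WT 1 and WT 3, and 3.61, 3.52 and 3.40 in PR3_KO 1, 2 and 3. Without WT 2 the median log2 fold change was -0.87 and 25 genes fell. Without WT 2 and PR3_KO 3 together, a comparison chosen after the data were seen, 24 fell and the median was -0.83.

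**Figure D3:**
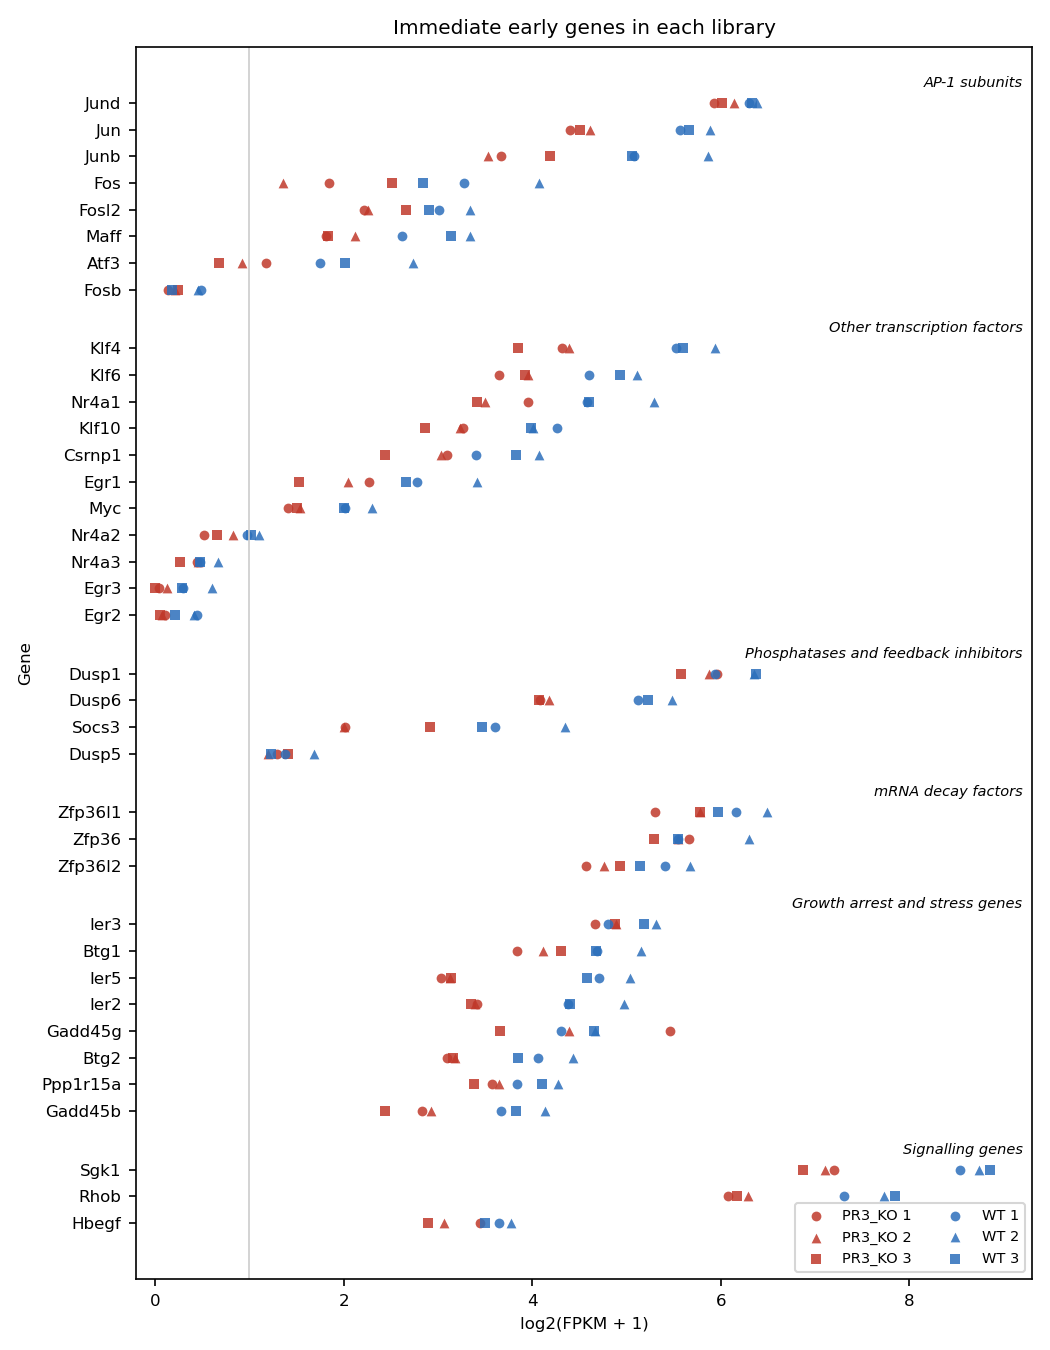
Level of each of the 37 immediate early genes in each library, as log2(FPKM + 1), grouped by role; red marks are PR3_KO, blue marks WT, and the shape gives the library number. The grey line marks 1 FPKM. Blue marks lie to the right of red ones except for Fosb, Ier3, Dusp1, Dusp5, Zfp36 and Gadd45g, where the genotypes overlap. Only for Gadd45g, in PR3_KO 1, is the rightmost mark red.

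Fos and Jun proteins form dimers that bind a shared DNA element, and Atf3 and Maff were grouped with them here. Of 8 genes of this family 7 were tested and all 7 fell, with a median of -1.20, and 6 fell after median-of-ratios scaling. Of all tested genes 41.1% fell, and 23.7% did after that scaling. Jun, the founding Jun subunit, was at 20.06, 23.45 and 21.66 FPKM in the PR3_KO libraries 1, 2 and 3 and at 46.52, 58.20 and 49.47 in WT 1, 2 and 3. Each genotype was tight and the lowest WT library lay well above the highest PR3_KO one (log2 fold change -1.20, SE 0.11, adjusted p = 0.000735 by limma). Junb, a Jun subunit with weaker activating capacity, was at 11.69, 10.56 and 17.17 FPKM in the PR3_KO libraries and 32.91, 57.10 and 32.27 in WT, and fell by 1.54 (SE 0.25, adjusted p = 0.00243 by limma). Jund, the subunit present in resting cells, was the most abundant of the family, at 59.79, 69.40 and 63.78 FPKM in the PR3_KO libraries and 77.72, 82.59 and 79.45 in WT. Its fall was the smallest of the family, 0.31 (SE 0.10, adjusted p = 0.0347 by limma), and the call was absent after median-of-ratios scaling (-0.02, adjusted p = 0.886 by limma) and in 5 of the 6 fits that left out a library, all except that without WT 2 (adjusted p by limma from 0.0517 to 0.126).

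Fos, the partner of the Jun proteins and the most transient of these messages, was at 2.58, 1.56 and 4.71 FPKM in the PR3_KO libraries and 8.72, 15.79 and 6.19 in WT. Fos varied more within each genotype than Jun did, and PR3_KO 3 came close to WT 3 (log2 fold change -1.50, SE 0.37, adjusted p = 0.0134 by limma). The Fos call was lost without PR3_KO 1 (-1.46, adjusted p = 0.055 by limma). Fosl2, a slower Fos relative, was at 3.63, 3.78 and 5.32 FPKM in the PR3_KO libraries and 7.06, 9.11 and 6.51 in WT (log2 fold change -0.71, adjusted p = 0.00903 by limma). Atf3, a stress-induced repressor that pairs with Jun proteins, was at 1.26, 0.89 and 0.60 FPKM in the PR3_KO libraries against 2.37, 5.65 and 3.04 in WT, and fell by 1.24 (adjusted p = 0.00584 by limma). Maff, a small Maf protein without an activation domain, was at 2.52, 3.35 and 2.57 FPKM in the PR3_KO libraries and 5.16, 9.12 and 7.80 in WT (log2 fold change -1.11, adjusted p = 0.00285 by limma). The libraries of the genotypes did not overlap for any of these 4 genes. The same held, with PR3_KO lower, for 49.1% of all tested genes.

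Among the PR3_KO libraries, PR3_KO 3 was the highest for 9 of the 37 genes, fewer than PR3_KO 1 (12) and PR3_KO 2 (16). The 9 were Fos, Fosb, Fosl2, Junb, Ier5, Dusp5, Btg1, Zfp36l2 and Socs3, the last described below. The lowest of all 6 libraries was PR3_KO 3 for 18 of the 37, PR3_KO 1 for 15 and PR3_KO 2 for 4. PR3_KO 3 also stood apart in neutrophil markers, whose 8 genes summed to 380 FPKM there against 37.7 and 30.1 in PR3_KO 1 and 2 and 147 to 245 in WT, with Mpo at 0 in at least 1 library. Of the 7 neutrophil markers tested 1 rose and 0 fell. Fos, Fosl2, Junb and Socs3 were picked from the 9 after their values were seen. Without PR3_KO 3 Fos, Fosl2, Junb and Socs3 had log2 fold changes of -1.80, -0.85, -1.74 and -1.80 (adjusted p = 0.0101, 0.00878, 0.00493 and 0.00488 by limma). Because PR3_KO 3 was their highest PR3_KO library, leaving it out had to deepen these falls, so they say nothing of neutrophils. Any part of neutrophil RNA in the level of these genes was not tested.

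Ratios of genes within a library do not depend on how the library is scaled. The pairs here were chosen after the values were seen and are given with no test. The log2 ratio of Jun to Jund FPKM stood at -1.58, -1.57 and -1.56 in PR3_KO 1, 2 and 3 and at -0.74, -0.50 and -0.68 in WT 1, 2 and 3. Junb to Jund was at -2.35, -2.72 and -1.89 in PR3_KO and -1.24, -0.53 and -1.30 in WT, again without overlap. The log2 ratio of Fos to Jun overlapped between genotypes (-2.96, -3.91 and -2.20 against -2.42, -1.88 and -3.0). Outside this family, Klf4 to Klf6 overlapped as well (0.72, 0.47 and -0.08 against 0.95, 0.84 and 0.68). So did Sgk1 to Rhob (1.14, 0.83 and 0.70 against 1.23, 1.01 and 1.01). Jun and Junb were thus lower relative to Jund in each PR3_KO library, under any scaling of whole libraries. Jund was taken as the denominator with its fall known to be the smallest of the family. The separation of these ratios follows in part from that choice.

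The other transcription factors of the set numbered 11, of which 7 were tested and all 7 fell, under the deposited and the median-of-ratios scaling alike. Of all tested genes 41.1% and 23.7% fell under these scalings. Klf4, a zinc finger factor of epithelial and endothelial cells that also acts in podocytes, was at 18.98, 20.03 and 13.38 FPKM in the PR3_KO libraries and 44.87, 60.19 and 47.31 in WT. It fell by 1.50 (SE 0.17, adjusted p = 0.000861 by limma), the largest fall of these 7. Klf6, a related injury-induced factor, was at 11.49, 14.46 and 14.14 FPKM in the PR3_KO libraries and 23.30, 33.58 and 29.54 in WT (log2 fold change -1.04, adjusted p = 0.00143 by limma). Klf10, induced by TGF-beta, was at 8.64, 8.38 and 6.26 FPKM in the PR3_KO libraries against 18.15, 15.10 and 14.82 in WT (log2 fold change -0.96, adjusted p = 0.00146 by limma). For all 3 KLF genes the highest PR3_KO library stayed below the lowest WT library, as it did for 49.1% of all tested genes.

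Nr4a1, an orphan nuclear receptor, was at 14.47, 10.34 and 9.63 FPKM in the PR3_KO libraries and 23.02, 38.27 and 23.31 in WT (log2 fold change -1.21, adjusted p = 0.00368 by limma). Egr1, a zinc finger factor that answers to serum response factor, was at 3.83, 3.13 and 1.88 FPKM in the PR3_KO libraries and 5.87, 9.67 and 5.31 in WT (log2 fold change -1.0, adjusted p = 0.0121 by limma). Csrnp1, a nuclear protein induced by axin, was at 7.55, 7.20 and 4.41 FPKM in the PR3_KO libraries and 9.61, 15.85 and 13.17 in WT (log2 fold change -0.91, adjusted p = 0.0111 by limma). These genes were separated between genotypes, as were 49.1% of all tested genes in that direction. WT 2 was well above the other WT libraries for Nr4a1 and Egr1. Myc, a driver of growth and ribosome production, was low throughout, at 1.66, 1.90 and 1.84 FPKM in the PR3_KO libraries and 3.03, 3.92 and 3.01 in WT (log2 fold change -0.62, adjusted p = 0.00567 by limma).

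The set has 5 genes with a mean under 1 FPKM, which had no place in the test: Fosb, a Fos paralog, Egr2 and Egr3, relatives of Egr1, and Nr4a2 and Nr4a3, relatives of Nr4a1. Egr3 was listed at 0.03, 0.09 and 0 FPKM in the PR3_KO libraries and 0.23, 0.52 and 0.22 in WT, which at the estimated depth is about 0 to 5 fragments per PR3_KO library and 12 to 31 per WT library. Egr2 was at 0.08, 0.05 and 0.04 FPKM against 0.36, 0.33 and 0.16. Nr4a2 was at 0.43, 0.77 and 0.58 FPKM against 0.97, 1.14 and 1.03. These 3 genes and Nr4a3 (0.36, 0.37 and 0.20 against 0.39, 0.59 and 0.39 FPKM) did not overlap between genotypes, each with an exact two-sided permutation p of 0.1, the smallest that 3 against 3 libraries can give. For Nr4a3 the gap was only 0.37 against 0.39 FPKM. How many of all genes under the filter lack overlap was not counted. Fosb overlapped, at 0.10, 0.16 and 0.18 FPKM in the PR3_KO libraries and 0.40, 0.37 and 0.13 in WT (two-sided exact permutation p = 0.3). With no filter on low values, Egr2, Egr3 and Nr4a2 passed (adjusted p = 0.0200, 0.0313 and 0.0347 by limma), and Fosb and Nr4a3 did not (adjusted p = 0.169 and 0.201 by limma). In that fit 5461 of all 18822 genes fell and 1312 rose.

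Of the 4 phosphatase and cytokine feedback genes 2 fell, a share near the 41.1% of all tested genes that fell. Dusp6, the cytoplasmic phosphatase of ERK, was at 15.98, 17.10 and 15.76 FPKM in the PR3_KO libraries and 33.83, 43.73 and 36.37 in WT (log2 fold change -1.17, SE 0.11, adjusted p = 0.000735 by limma). Socs3, the inhibitor of JAK and STAT3 signalling, was at 3.05, 3.01 and 6.55 FPKM in the PR3_KO libraries and 11.13, 19.32 and 10.10 in WT (log2 fold change -1.49, SE 0.31, adjusted p = 0.00618 by limma). Dusp1, the nuclear phosphatase of p38 and JNK, was abundant in both genotypes, at 61.05, 57.80 and 46.87 FPKM in the PR3_KO libraries and 60.16, 80.66 and 82.08 in WT. PR3_KO 1 lay above WT 1, and the log2 fold change of -0.42 (95% interval -0.78 to -0.05) did not pass (adjusted p = 0.0555 by limma), though it did without WT 1 (-0.56, adjusted p = 0.0169 by limma) and with library sums made equal (-0.58, adjusted p = 0.0117 by limma). Dusp5, a nuclear phosphatase of ERK, was at 1.30 to 1.65 FPKM in PR3_KO and 1.34 to 2.22 in WT, with an interval of -0.48 to 0.22 for the log2 fold change (adjusted p = 0.486 by limma). The log2 ratio of Dusp6 to Dusp1, chosen after the values were seen, ran at -1.93, -1.76 and -1.57 in PR3_KO libraries and -0.83, -0.88 and -1.17 in WT.

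The Zfp36 family binds AU-rich elements in the 3′ untranslated part of short-lived messages and recruits deadenylases. Its 3 members were among the more abundant of the set. Zfp36, tristetraprolin, was at 49.59, 45.75 and 38.30 FPKM in the PR3_KO libraries and 45.88, 77.87 and 45.55 in WT, so that only WT 2 stood above PR3_KO (log2 fold change -0.30, 95% interval -0.79 to 0.20, adjusted p = 0.267 by limma). Zfp36l1 was at 38.46, 53.97 and 53.86 FPKM in the PR3_KO libraries and 70.62, 89.13 and 61.58 in WT and fell by 0.59 (adjusted p = 0.0266 by limma), but not past the threshold without PR3_KO 1 (adjusted p = 0.0861 by limma), without WT 2 (adjusted p = 0.0501 by limma) or with no filter (adjusted p = 0.0536 by limma). Zfp36l2 was at 22.69, 26.15 and 29.53 FPKM in the PR3_KO libraries and 41.47, 49.85 and 34.41 in WT (log2 fold change -0.65, adjusted p = 0.00960 by limma). After median-of-ratios scaling 0 of the 3 passed, with log2 fold changes of -0.01, -0.30 and -0.37 (adjusted p = 0.980, 0.156 and 0.0559 by limma).

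Growth arrest and stress genes fell in 6 of 8 cases, against 41.1% of all tested genes. Ier5, a nuclear protein that modulates heat shock factor activity, had the largest fall of all 32 genes: it was at 7.16, 7.72 and 7.78 FPKM in the PR3_KO libraries and 25.10, 31.77 and 22.95 in WT (log2 fold change -1.68, SE 0.13, adjusted p = 0.000598 by limma). Ier2, a related nuclear protein, was at 9.65, 9.54 and 9.21 FPKM in the PR3_KO libraries and 19.84, 30.39 and 20.14 in WT (log2 fold change -1.20, adjusted p = 0.00118 by limma). In both genes the PR3_KO libraries were nearly equal to each other. Ier3, an anti-apoptotic membrane protein that shares only its name with them, was at 24.29, 28.69 and 28.49 FPKM in the PR3_KO libraries and 26.86, 38.79 and 35.43 in WT. The groups overlapped and it did not pass (log2 fold change -0.29, 95% interval -0.63 to 0.05, adjusted p = 0.128 by limma), except without WT 1 (adjusted p = 0.0205 by limma) and with library sums made equal (adjusted p = 0.0420 by limma) and in a fit that blocks on the replicate number. The log2 ratio of Ier5 to Ier3, chosen after the values were seen, ran at -1.76, -1.89 and -1.87 in PR3_KO libraries and -0.10, -0.29 and -0.63 in WT.

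Btg1 and Btg2 encode antiproliferative proteins that act with the CCR4-NOT deadenylase. Btg2 was at 7.53, 8.07 and 7.97 FPKM in the PR3_KO libraries and 15.65, 20.67 and 13.45 in WT (log2 fold change -0.97, adjusted p = 0.00179 by limma). Btg1 was at 13.27, 16.34 and 18.72 FPKM in the PR3_KO libraries and 24.77, 34.71 and 24.63 in WT (log2 fold change -0.76, adjusted p = 0.00753 by limma). Both were separated between genotypes, as were 49.1% of all tested genes in that direction. Gadd45b, which activates stress kinases, was at 6.10, 6.58 and 4.41 FPKM in the PR3_KO libraries and 11.69, 16.56 and 13.19 in WT (log2 fold change -1.15, adjusted p = 0.00154 by limma). Its paralog Gadd45g was the exception of the set, with 42.99, 19.97 and 11.58 FPKM in the PR3_KO libraries and 18.70, 24.34 and 24.11 in WT. PR3_KO 1 held the highest and PR3_KO 3 the lowest value, and the 95% interval of the log2 fold change ran from -1.04 to 0.97 (adjusted p = 0.947 by limma), with the estimate at 0.25 after median-of-ratios scaling. Ppp1r15a, which directs dephosphorylation of the translation factor eIF2 alpha, was at 10.93, 11.50 and 9.42 FPKM in the PR3_KO libraries and 13.29, 18.30 and 16.21 in WT (log2 fold change -0.54, adjusted p = 0.0118 by limma), and did not pass after median-of-ratios scaling (-0.26, adjusted p = 0.111 by limma).

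The signalling genes include the most abundant of the set. Sgk1, a kinase induced by glucocorticoids, mineralocorticoids and serum that raises sodium uptake in the distal nephron, was at 146.17, 136.70 and 115.98 FPKM in the PR3_KO libraries and 369.63, 424.92 and 460.99 in WT. The WT mean of 419 ± 46.0 FPKM was 3.15 times the PR3_KO mean of 133 ± 15.4 (log2 fold change -1.65, SE 0.14, adjusted p = 0.000684 by limma). Rhob, a small GTPase of endosomes and endothelium, was at 66.23, 77.14 and 71.22 FPKM in the PR3_KO libraries and 157.20, 210.62 and 229.25 in WT, and fell by 1.45 (SE 0.16, adjusted p = 0.000825 by limma). For these genes WT 3, not WT 2, was the highest library. Hbegf, a ligand of the EGF receptor that podocytes and tubules make, was at 9.91, 7.34 and 6.45 FPKM in the PR3_KO libraries and 11.57, 12.71 and 10.29 in WT. Its fall of 0.51 (SE 0.15, adjusted p = 0.0261 by limma) lost its call under median-of-ratios scaling (-0.24, adjusted p = 0.250 by limma) and when PR3_KO 2, PR3_KO 3, WT 1 or WT 2 was left out (adjusted p = 0.0717, 0.0875, 0.0579 and 0.0568 by limma).

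Ordered by WT mean FPKM, a scale per transcript length, the set ran from Sgk1 and Rhob (419 and 199) through Jund, Dusp1 and Zfp36l1 (79.9, 74.3 and 73.8) to Egr2 (0.283). The WT libraries of those last 3 abundant genes overlapped, and so did those of Zfp36, Jun and Klf4 (56.4 ± 18.6, 51.4 ± 6.07 and 50.8 ± 8.23 FPKM). In PR3_KO the order was Sgk1, Rhob, Jund, Dusp1, Zfp36l1 and Zfp36 (133, 71.5, 64.3, 55.2, 48.8 and 44.5 FPKM). Jun and Klf4, at 21.7 and 17.5 FPKM, came after Ier3, Zfp36l2 and Gadd45g there (27.2, 26.1 and 24.8 FPKM).

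Lists of related genes were compared in the same fit. The first holds 66 other early response and feedback genes. Of the 61 tested, 35 fell and 2 rose, against 41.1% and 11.7% of all tested genes, with a median log2 fold change of -0.66. With median-of-ratios scaling 28 fell and 4 rose, against 23.7% and 23.8% of all tested genes, with a median of -0.39. Its median lay between those of the immediate early genes (-0.99) and of all tested genes (-0.26), a difference that was not tested. Sertad1, a regulator of cyclin-dependent kinase 4, was at 16.70 to 17.77 FPKM in PR3_KO and 28.20 to 32.62 in WT (log2 fold change -0.77, adjusted p = 0.000914 by limma). Gadd45a, the third Gadd45 gene, was at 13.51 to 14.35 FPKM against 24.99 to 37.76, and the helix-loop-helix inhibitor Id3 at 58.69 to 80.74 against 152 to 192 (log2 fold changes -1.15 and -1.21, adjusted p = 0.00114 by limma for both). Spred1, an inhibitor of Ras signalling, fell by 0.78 (adjusted p = 0.00115 by limma). The 2 that rose were Errfi1, an inhibitor of the EGF receptor, at 132 to 217 FPKM in PR3_KO and 72.04 to 92.96 in WT (log2 fold change 1.0, SE 0.19, adjusted p = 0.00420 by limma), and Sik1, a salt-inducible kinase, at 8.83 to 12.59 against 6.85 to 7.36 (log2 fold change 0.53, adjusted p = 0.0114 by limma). Libraries of the genotypes did not overlap for Errfi1 or Sik1. Among all tested genes 16.0% lay higher in PR3_KO without overlap.

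The second list holds 43 kinases and transcription factors that act upstream. Of 42 tested, 28 fell and 1 rose, against 41.1% and 11.7% of all tested genes, and the median was -0.42. With median-of-ratios scaling 14 fell and 4 rose, against 23.7% and 23.8% of all genes, and the median was -0.17. Nras, a small GTPase, was at 9.27 to 11.14 FPKM in PR3_KO and 19.64 to 23.04 in WT (log2 fold change -0.94, adjusted p = 0.000854 by limma). Creb1, the factor at cyclic AMP response elements, was at 3.62 to 4.60 against 9.09 to 11.07 FPKM (log2 fold change -1.16, adjusted p = 0.000794 by limma). Elk3, a ternary complex factor strongly expressed in endothelium, was at 11.22 to 17.10 against 40.17 to 56.70 FPKM (log2 fold change -1.61, adjusted p = 0.000865 by limma). Egfr, the EGF receptor, was the gene that rose, from 4.49 to 5.76 FPKM in WT to 9.69 to 9.84 in PR3_KO (log2 fold change 0.86, SE 0.11, adjusted p = 0.00109 by limma). The receptor Egfr and its inhibitor Errfi1 were higher in PR3_KO while the ligand Hbegf was lower, the last with the limits given above. These genes were set side by side after their values were seen, and a change in EGF receptor signalling was not tested.

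**Figure D4:**
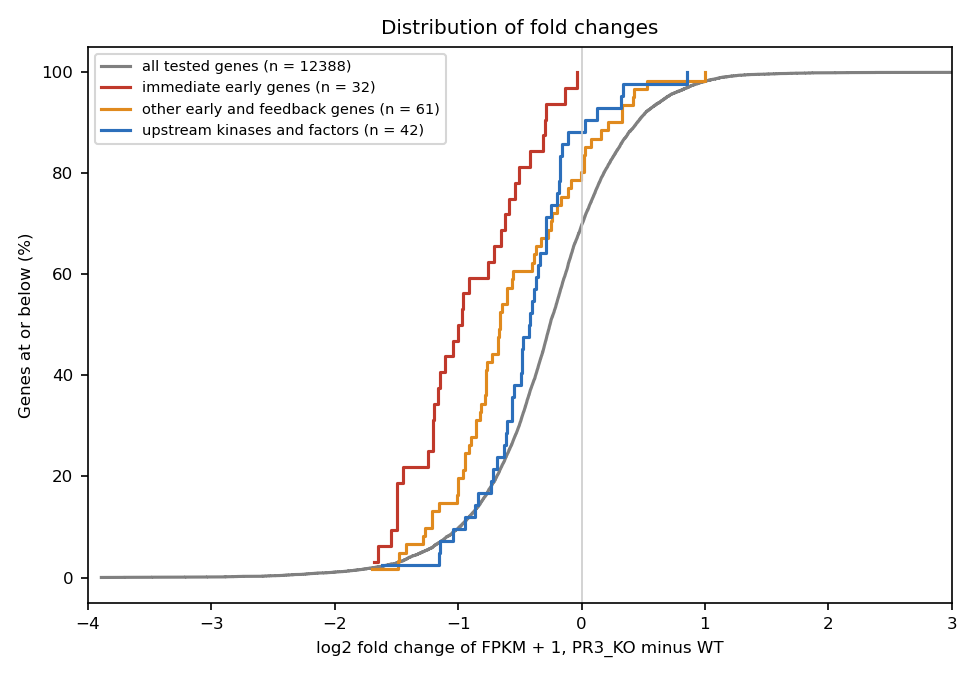
Cumulative share of genes (%) at or below each log2 fold change (PR3_KO minus WT, FPKM + 1), for all 12388 tested genes (grey), the 32 immediate early genes (red), 61 other early response and feedback genes (orange) and 42 upstream kinases and factors (blue). The medians are -0.26, -0.99, -0.66 and -0.42.

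The selection by name did not use the structure of the genes. In the GENCODE M21 annotation of GRCm38, taking 1 coding transcript per gene, 6 of the 32 tested genes have 1 exon (Jun, Junb, Jund, Ier2, Ier5 and Rhob) and 14 have 1 or 2, while 1.84% and 6.62% of 12079 annotated tested genes do. The other 18 have 3 or more, up to 14 in Sgk1. The median number of exons was 3 against 9, and the median transcript length 2552 bases against 2886. Among the genes with 1 exon, Jund had a log2 fold change of -0.31 and the other 5 ran from -1.68 to -1.20.

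The AU-rich nonamer TTATTTATT, the core element read by the Zfp36 proteins, was searched in the 3′ untranslated part of the sense strand. It was found in 9 of the 32 genes (28.1%), against 6.87% of 11935 tested genes. The untranslated parts of the 32 were somewhat longer, with a median of 1148 bases against 945. The elements are shown because the family that reads them belongs to the set. Windows from GRCm38 are written 5′ to 3′ on the sense strand, with the nonamers in capitals. Fos lies at chr12:85477103-85477131 (plus strand), Dusp1 at chr17:26506159-26506187, Ppp1r15a at chr7:45522951-45522979 and Zfp36 at chr7:28376951-28376979 (minus strand), and Maff at chr15:79358778-79358806 (plus strand).
Fos: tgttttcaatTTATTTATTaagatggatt
Dusp1: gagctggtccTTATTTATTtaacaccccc
Ppp1r15a: cctaTTATTTATTTATTTATTTATTtgaa
Zfp36: tatgacgactTTATTTATTgtattaagat
Maff: ttccacactcTTATTTATTgcacgaatct

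The Ppp1r15a window holds 4 overlapping nonamers and the others 1 each. The median log2 fold change of the 9 genes with the nonamer was -0.65, against -1.15 in the 23 without it, and over all tested genes the medians were -0.35 and -0.25. No test was made of these differences. The remaining carriers are Csrnp1, Fosl2, Zfp36l1 and Zfp36l2, so the nonamer is present in all 3 Zfp36 genes themselves.

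**Figure D5:**
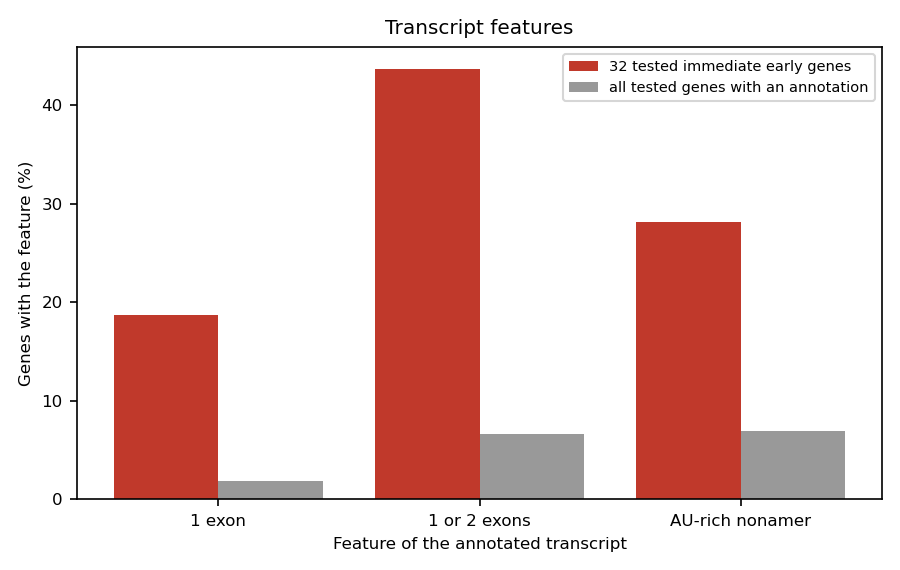
Share of genes (%) whose annotated transcript has 1 exon, 1 or 2 exons, or at least 1 AU-rich nonamer in its 3′ untranslated part, for the 32 tested immediate early genes (red) and all annotated tested genes (grey). The shares are 18.8% against 1.84%, 43.8% against 6.62% and 28.1% against 6.87%.

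Promoters were read from RefSeq sequences of GRCm38.p6, from 250 bases before to 50 after the start site, with 30 of the 37 genes matched (no entry for Egr1, Egr3, Hbegf, Ier2, Klf10, Myc and Zfp36l2). Both strands were searched for the cyclic AMP response element TGACGTCA, the AP-1 site TGANTCA and the CArG box of serum response factor. Each of these patterns reads the same on either strand, and the first 2 cannot match the same bases. The cyclic AMP response element was found in 4 of the 30 genes (Btg2, Dusp1, Maff and Ppp1r15a), against 2.03% of all 27025 genes with a promoter entry and 3.34% of the 9940 tested genes among them. The CArG box was found in 3 (Dusp5, Egr2 and Zfp36), against 1.81% of all and 1.52% of tested genes. The AP-1 site was found in 2 (Csrnp1 and Zfp36l1), or 6.67%, which is below its share in all genes (8.97%) and close to that in tested genes (6.24%). Of these 9 genes, Dusp1, Dusp5 and Zfp36 did not pass the test and Egr2 was not tested. Promoters are shown, as 1 pair that fell and 1 pair that did not pass, with matches in capitals, 5′ to 3′ on the strand of the gene. They lie at chr1:134079106-134079405 (Btg2, minus strand), chr15:79347270-79347569 (Maff, plus strand), chr17:26508423-26508722 (Dusp1, minus strand) and chr7:28379179-28379478 (Zfp36, minus strand).
Btg2: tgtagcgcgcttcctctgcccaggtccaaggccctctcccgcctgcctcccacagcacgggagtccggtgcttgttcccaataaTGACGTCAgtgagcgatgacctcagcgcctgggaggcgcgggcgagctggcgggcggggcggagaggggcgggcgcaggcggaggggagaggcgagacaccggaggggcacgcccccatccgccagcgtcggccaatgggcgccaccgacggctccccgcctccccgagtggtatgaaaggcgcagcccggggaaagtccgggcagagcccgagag
Maff: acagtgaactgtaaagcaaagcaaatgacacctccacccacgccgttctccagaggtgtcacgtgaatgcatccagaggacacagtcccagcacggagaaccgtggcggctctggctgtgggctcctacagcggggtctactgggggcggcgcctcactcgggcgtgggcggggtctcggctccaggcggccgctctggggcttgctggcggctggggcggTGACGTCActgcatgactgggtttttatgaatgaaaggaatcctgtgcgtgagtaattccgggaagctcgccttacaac
Dusp1: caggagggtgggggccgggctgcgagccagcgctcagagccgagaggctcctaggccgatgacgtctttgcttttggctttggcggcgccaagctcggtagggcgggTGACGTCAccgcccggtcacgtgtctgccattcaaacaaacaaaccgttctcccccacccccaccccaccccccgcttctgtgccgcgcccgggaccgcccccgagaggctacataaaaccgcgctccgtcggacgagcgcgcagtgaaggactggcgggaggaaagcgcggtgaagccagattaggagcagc
Zfp36: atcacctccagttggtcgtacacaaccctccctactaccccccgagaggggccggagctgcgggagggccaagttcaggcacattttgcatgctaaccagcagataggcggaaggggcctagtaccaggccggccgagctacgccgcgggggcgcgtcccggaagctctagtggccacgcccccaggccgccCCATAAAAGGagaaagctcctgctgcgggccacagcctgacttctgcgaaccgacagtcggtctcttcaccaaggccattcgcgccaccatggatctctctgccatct

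The capitals in Btg2, Maff and Dusp1 are the cyclic AMP response element, which starts 166, 29 and 143 bases before the start site. In Zfp36 they are a CArG box that starts 58 bases before it. Btg2 and Maff fell by 0.97 and 1.11 on the log2 scale, while Dusp1 carries the same element and was at -0.42 without passing. These matches are letters in a window and say nothing of binding.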

How the data were processed

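The authors deposited FPKM values in a table for each library, per the file headers, and the values hold at most 2 decimals. Per the labels' protocols, Trizol was used for the RNA and oligo(dT) for its selection, and DNBSEQ was the platform. Bowtie2 and the build GRCm38.p6 were used, per the submitters' processing notes. The Bowtie2 version, counting tool, annotation and strand setting were not given in the sources used here. Each table listed 22064 Entrez IDs, of which 3242 were empty in all 6, and 18770 of the remaining 18822 matched a RefSeq table of GRCm38.p6.

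The test was limma 3.58.1 (statmod 1.5.0, R 4.3.3) on log2(FPKM + 1), with genotype as the only term, an intensity trend and robust moderation, over genes that averaged 1 FPKM or more, and Benjamini-Hochberg adjustment. The fit was tried on simulated data with equal numbers of raised and lowered genes and no general shift between genotypes. The data here do have such a shift, so that trial does not cover the effect of scaling. Genes under the filter had an exact permutation test. The members and gene lists were chosen with earlier results of these data known. Every member that passed is named with its values, as are 12 core members whatever their result, and from each further list up to 4 genes in each direction with the smallest adjusted p. One gene that this rule names is not reported here. Plots and motif searches used Python 3.11.15, pandas 2.3.3, numpy 2.4.6, scipy 1.17.1 and matplotlib 3.10.9. Markers of lymphocytes (3 of 8 tested, 0 passed, 9.47 to 13.9 against 11.0 to 25.1 FPKM summed) and fibroblasts (3 of 6 tested, 2 fell, 7.36 to 12.1 against 12.5 to 18.8 FPKM, Lum at 0 in at least 1 library) were low. Alternatives changed the pseudocount, the filter, the scaling, the moderation, the pairing and the libraries used.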

Additional observations from a re-analysis of the deposited data

How the results depend on the processing

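Across all alternatives between 22 and 29 immediate early genes fell and 0 rose. With median-of-ratios scaling 22 of 32 fell, where 2931 of all 12388 tested genes did. With library sums made equal 29 of 32 fell, where 6341 of all 12388 did. With no filter 29 of 37 fell, where 5461 of all 18822 did. The median of the immediate early genes was -0.73 with median-of-ratios scaling and -1.20 with library sums made equal. For other early response and feedback genes, median-of-ratios scaling gave 4 that rose and a median of -0.39, and equal sums 1 that rose. For upstream kinases and factors, median-of-ratios scaling gave 14 that fell, 4 that rose and a median of -0.17, and equal sums a median of -0.60. Leaving out 1 library at a time gave 24 to 27 immediate early genes that fell, and 1 to 2 upstream genes that rose. Of the 27 calls, 23 held in all 6 of those fits, and 21 of these also with median-of-ratios scaling. Over all genes 1454 rose as deposited, 2951 with median-of-ratios scaling, 897 with equal sums, 916 without PR3_KO 1 and 936 without PR3_KO 3; 5091 fell as deposited and 2931 with median-of-ratios scaling. The causes were not tested.

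The labels number the libraries 1 to 3 in each genotype but do not say that the numbers pair the samples. The deviations of same-numbered libraries correlated at 0.07, 0.27 and -0.09 over the tested genes, and PR3_KO 1 correlated best with WT 3 (0.32). With 3 libraries per genotype these correlations cannot decide whether the samples are paired. With the replicate number as a block, 27 immediate early genes and 26 upstream genes fell and 2 upstream genes rose; Fos did not pass (limma adjusted p = 0.108) and Ier3 did (limma adjusted p = 0.0472). Counting error is not given, since the values are FPKM, and genes under 1 FPKM rest on few fragments.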
